A study of Mus musculus with 8 samples.

Results

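The nuclear genes of the mitochondrial respiratory chain were examined by complex in differentiated 3T3-L1 cells after silencing of Erk3. They were taken from the count table by symbol: every gene starting with Nduf, Uqcr or Atp5, the genes Sdha to Sdhd, those starting with Cox4 to Cox8, and Cyc1 and Cycs. Cox7a1 and Cox8b, which are used as markers of brown fat, were left out. This gave 94 of the 18088 genes in the table, of which 87 were genes and 7 were processed copies whose symbols end in -ps. All 94 were abundant enough to be tested, among 17972 genes tested in all.

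3T3-L1 is a mouse fibroblast line that can be driven in culture to resemble adipocytes. The cells, labelled wild type, were differentiated, detached, transfected with siRNA at 1.25 nM per square centimeter and used 48 h later. The 4 siErk3 libraries (siERK3 in the labels) came from cells that received siRNA targeting Erk3, and the 4 siNTC libraries from cells that received a nontargeting siRNA; the labels give no other treatment. They do not say whether the 4 libraries of a group came from separate differentiations or transfections, so the p-values cover the spread among these libraries alone, which may be technical. The paper describes its siRNAs as bought in pools. No other siRNA against Erk3 and no rescue of the gene were among these libraries. Effects of the siRNA other than silencing of Erk3 therefore cannot be told apart from that silencing and were not tested.

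The respiratory chain passes electrons from NADH (complex I) and succinate (complex II) through ubiquinone, complex III and cytochrome c to oxygen at complex IV. The proton gradient built on the way drives ATP synthesis at complex V. Complexes I, III, IV and V combine subunits of the nuclear genome with subunits of mitochondrial DNA, whereas complex II is wholly nuclear. In fat cells the chain takes up electrons from the oxidation of part of the fatty acids that lipolysis frees. It is richest in brown fat.

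Total counts were 9887357 to 9943572 per siErk3 library and 9854522 to 9920350 per siNTC library, so depth was nearly equal. Mapk6, the gene that encodes ERK3, had 74.8, 71.6, 68.5 and 63.5 CPM in the siErk3 libraries, against 588, 572, 558 and 599 CPM in the siNTC libraries, where CPM are counts scaled to library size with TMM factors. The silenced gene was thus low in every siErk3 library and in no siNTC library. Markers of adipocytes were present, led by Fabp4 and Adipoq, and 9 of 10 in the list were called lower in siErk3, 1 higher. Their summed level was 12971 to 13342 CPM in siErk3 libraries and 20539 to 22948 CPM in siNTC libraries. The changes were uneven: among those called lower, the log2 fold change ran from -0.13 for Pparg to -1.71 for Retn. The adipocyte marker called higher was Cd36 (log2 fold change 0.19). Of the preadipocyte and fibroblast markers in the table, 6 of 8 were called lower and 1 higher (summed 2341 to 2443 CPM in siErk3, 2310 to 2572 CPM in siNTC). The 1 called higher was Ly6a, with 307 ± 11.4 CPM in siErk3 and 3.47 ± 0.576 CPM in siNTC (SD, n = 4 each, log2 fold change 6.46). The similar sums thus include the rise of Ly6a and hide the fall of most markers in the list. Fewer adipocytes and less RNA per adipocyte cannot be told apart in these bulk samples, and the part of the marker shift in the results was not tested. For macrophages 3 of 7 markers, for endothelium 1 of 5 and for muscle 1 of 9 were in the table. Of the 3 macrophage markers, Cd14 and Cd68 were called higher (log2 fold changes 1.69 and 1.05), with a summed level of 20.4 to 25.0 CPM in siErk3 and 9.89 to 14.5 CPM in siNTC. The muscle marker Acta1 was called higher (log2 fold change 1.06, 9.66 to 11.6 CPM in siErk3 and 4.27 to 5.78 CPM in siNTC), and the endothelial marker Pecam1 was not called. The defining markers Adgre1, Itgam, Ptprc, Cdh5, Kdr, Ckm and Myog were not among those in the table, and the part of these markers in the results was not tested. Of the siNTC libraries, replicate 2 stood somewhat apart: it held the lowest siNTC value for 62 of the 87 genes, with a median deviation of -0.10 on the log2 scale.

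Most of the respiratory chain was lower in the siErk3 libraries. Of the 94 members, 63 were called lower and 3 higher in siErk3 than in siNTC at an adjusted p under 0.05 (edgeR's quasi-likelihood test, Benjamini-Hochberg adjustment over all genes), and 28 did not pass. Over all genes tested, 23.8% were called lower and 24.9% higher, against 67% of the members lower. The shifts were modest. The median log2 fold change (siErk3 over siNTC) of the members was -0.23, with a range of -0.89 to 0.58, against 0.00 for all genes, and no member was lower by 2-fold or more. For 55 members the highest siErk3 library lay under the lowest siNTC library, a pattern seen in 20.7% of all genes.

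The count depended on the scaling. With library sizes only, 49 members were called lower and 7 higher, while 3139 genes in all were called lower and 5849 higher, against 4275 and 4470 with TMM scaling. With upper-quartile factors, 69 members were called lower and 2 higher, among 5394 genes lower and 3556 higher. Without siNTC replicate 2, 68 members were called lower.

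**Figure D1:**
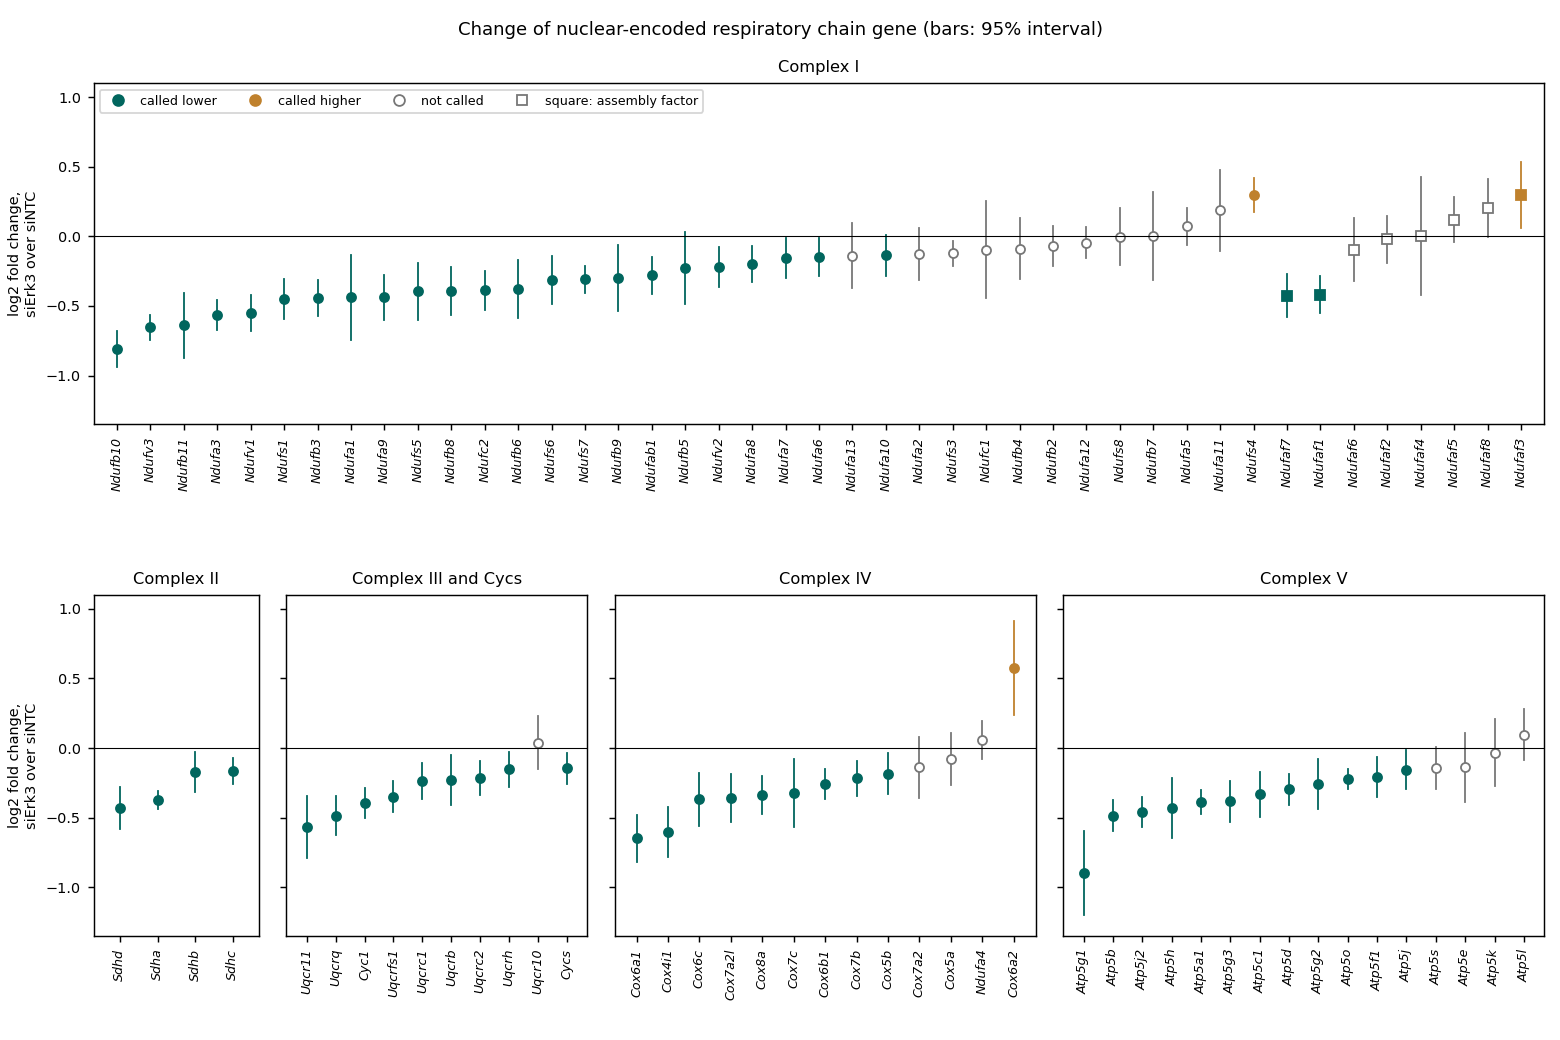
Log2 fold change (siErk3 over siNTC, 4 libraries each) of 86 of the 87 genes without pseudogenes, by complex. Points are fitted values, bars the 95% interval from each gene's own spread, filled points are called and squares are complex I assembly factors; the test pools the spread over genes, so a call and a bar that crosses 0 can go together. All 4 genes of complex II lie below 0, and the only points called higher are Ndufs4, Ndufaf3 and Cox6a2.

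Summed over its genes, each complex was lower in siErk3. The summed level of the 87 genes was 11003, 11027, 11193 and 11033 CPM in siErk3 libraries, against 14137, 13136, 14517 and 14704 CPM in siNTC libraries. The siErk3 libraries lay close together and below every siNTC library, and the lowest siNTC sum was that of replicate 2. The ratio of the group means was 0.793 for complex I, 0.808 for complex II, 0.814 for complex III, 0.770 for complex IV and 0.763 for complex V. As a share of all counts, without TMM scaling, the 87 genes made up 1.14% ± 0.0182 in siErk3 and 1.37% ± 0.0555 in siNTC (SD, n = 4 each), a ratio of 0.832. Both measures place siErk3 lower, with a smaller gap on unscaled counts. The sums follow the abundant genes, so Atp5b alone weighs more than all of complex II.

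**Figure D2:**
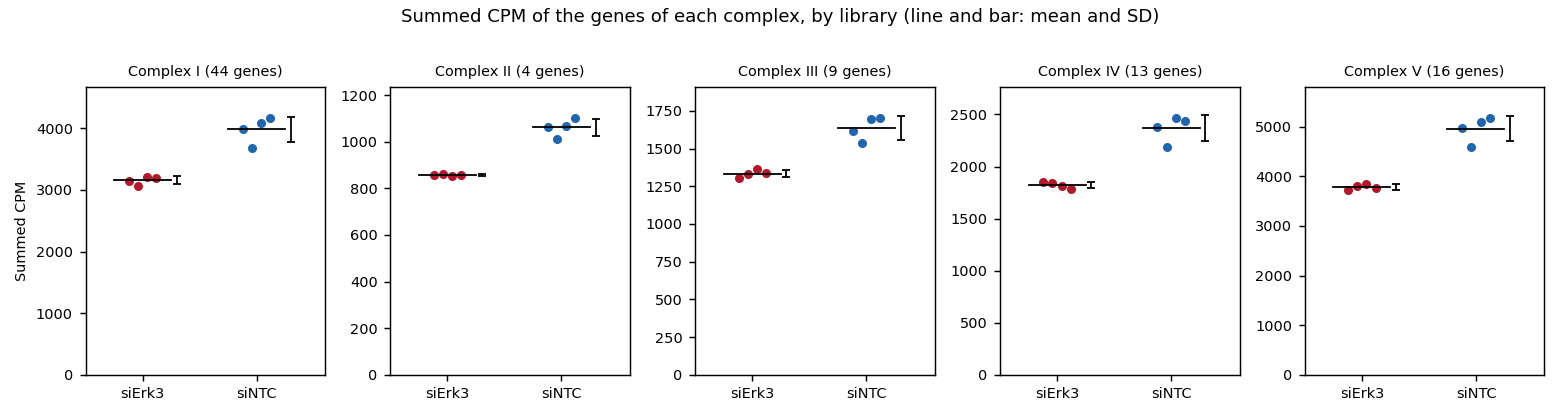
Summed CPM of the genes of each complex in each library (points), with mean (line) and SD (bar), siErk3 left of siNTC. In every complex the 4 siErk3 points lie below the 4 siNTC points, with ratios of 0.763 to 0.814.

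Complex I, the NADH dehydrogenase, is the largest complex of the chain, with 45 members in the table including 1 pseudogene; Ndufa4 was counted with complex IV, where its protein resides. Of these, 27 were called lower and 2 higher, and the median log2 fold change was -0.22. Among the 36 subunits 24 were called lower, 1 higher and 11 were not called. The 7 core subunits, which carry the flavin and the iron-sulfur clusters or shape the ubiquinone site, gave 5 lower calls. The 29 accessory subunits gave 19 lower calls and 1 higher call.

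Ndufb10, an accessory subunit of the membrane arm, showed the largest fall in complex I. It had 91.5, 84.7, 85.8 and 87.1 CPM in siErk3 libraries, against 149, 142, 166 and 154 CPM in siNTC libraries. The groups were far apart, and the log2 fold change was -0.81 ± 0.054 (SE, adjusted p = 2.74e-11). The gene lies on chr17:24722060-24724478 (mm10, minus strand) and shares neither exons nor sequence with another annotated gene.

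Genes of the NADH-oxidizing end of the complex were among those called lower. Ndufv1, which binds NADH and the flavin, had 279, 248, 260 and 248 CPM in siErk3 and 393, 355, 394 and 377 CPM in siNTC (log2 fold change -0.55 ± 0.054, adjusted p = 1.13e-08). Ndufv3, a small accessory partner of Ndufv1, had 168, 162, 172 and 167 CPM in siErk3 and 266, 247, 275 and 263 CPM in siNTC. Its log2 fold change was -0.65 ± 0.037 (adjusted p = 2.06e-10). The groups did not overlap for either gene. All 3 Ndufv genes were called lower, Ndufv2 with a log2 fold change of -0.22. Ndufs1, the largest iron-sulfur subunit, was also called lower (log2 fold change -0.45).

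A pair of further accessory genes completed the largest falls. Ndufb11, of the membrane arm, had 39.1, 42.1, 40.9 and 45.0 CPM in siErk3 and 67.0, 55.6, 64.1 and 73.5 CPM in siNTC (log2 fold change -0.64 ± 0.096, adjusted p = 1.20e-07). Ndufa3 had 35.7, 33.7, 35.7 and 35.1 CPM in siErk3 and 53.1, 47.8, 54.2 and 52.4 CPM in siNTC (log2 fold change -0.56 ± 0.045, adjusted p = 4.99e-08). No library crossed between the groups in either gene. Of the 10 Ndufb genes 7 were called lower, of the 12 Ndufa genes 7, and of the 8 Ndufs genes 5.

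Other subunits did not pass the test. The core subunits Ndufs3 and Ndufs8, both of the arm that leads electrons to ubiquinone, were not called (log2 fold changes -0.12 and 0.00). For Ndufs8, 71.9, 77.3, 77.7 and 73.4 CPM in siErk3 stood against 77.4, 63.4, 78.8 and 81.3 CPM in siNTC, so the groups overlapped. The 95% interval of its log2 fold change was -0.21 to 0.20. The accessory subunits Ndufa2, Ndufa5, Ndufa11, Ndufa12, Ndufa13, Ndufb2, Ndufb4, Ndufb7 and Ndufc1 were not called either, with log2 fold changes between -0.14 for Ndufa13 and 0.19 for Ndufa11. With library sizes only, Ndufa11 was called higher.

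Ndufs4 was the only complex I subunit called higher. It encodes an accessory subunit of the NADH-oxidizing arm that is needed for a stable complex I. It had 38.3, 39.9, 40.7 and 43.7 CPM in siErk3, against 31.2, 33.0, 33.7 and 34.4 CPM in siNTC. Every siErk3 library lay above every siNTC library, and the log2 fold change was 0.30 ± 0.051 (adjusted p = 5.67e-04). The call held under all 16 alternatives, with adjusted p between 2.62e-05 and 5.58e-03. The gene lies on chr13:114287795-114388258 (minus strand) and shares neither exons nor sequence with another gene.

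Of the 8 Ndufaf genes, whose products help to build complex I but do not stay in it, 2 were called lower (25%, beside 23.8% of all genes), 1 higher and 5 were not called. Their median log2 fold change was -0.01, against -0.25 for the 36 subunits; this difference was not tested. Ndufaf7, a mitochondrial methyltransferase, had 24.2, 24.6, 20.7 and 23.3 CPM in siErk3 and 31, 29.3, 31.7 and 32.5 CPM in siNTC (log2 fold change -0.42 ± 0.062, adjusted p = 4.48e-05). Ndufaf1 was called lower to the same extent (log2 fold change -0.42). Ndufaf3 had 11.9, 11.4, 12.8 and 10.4 CPM in siErk3 and 8.75, 8.47, 10.3 and 10.2 CPM in siNTC (log2 fold change 0.30 ± 0.096, adjusted p = 0.0284). The groups of Ndufaf3 barely separated, and 6 of 16 alternatives lost the call (adjusted p between 5.57e-03 and 0.0931 over the 16). It also shares 48 exonic bases with Impdh2 on the opposite strand, and the kit does not mark strand. Ndufaf2, Ndufaf4, Ndufaf5, Ndufaf6 and Ndufaf8 were not called.

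**Figure D3:**
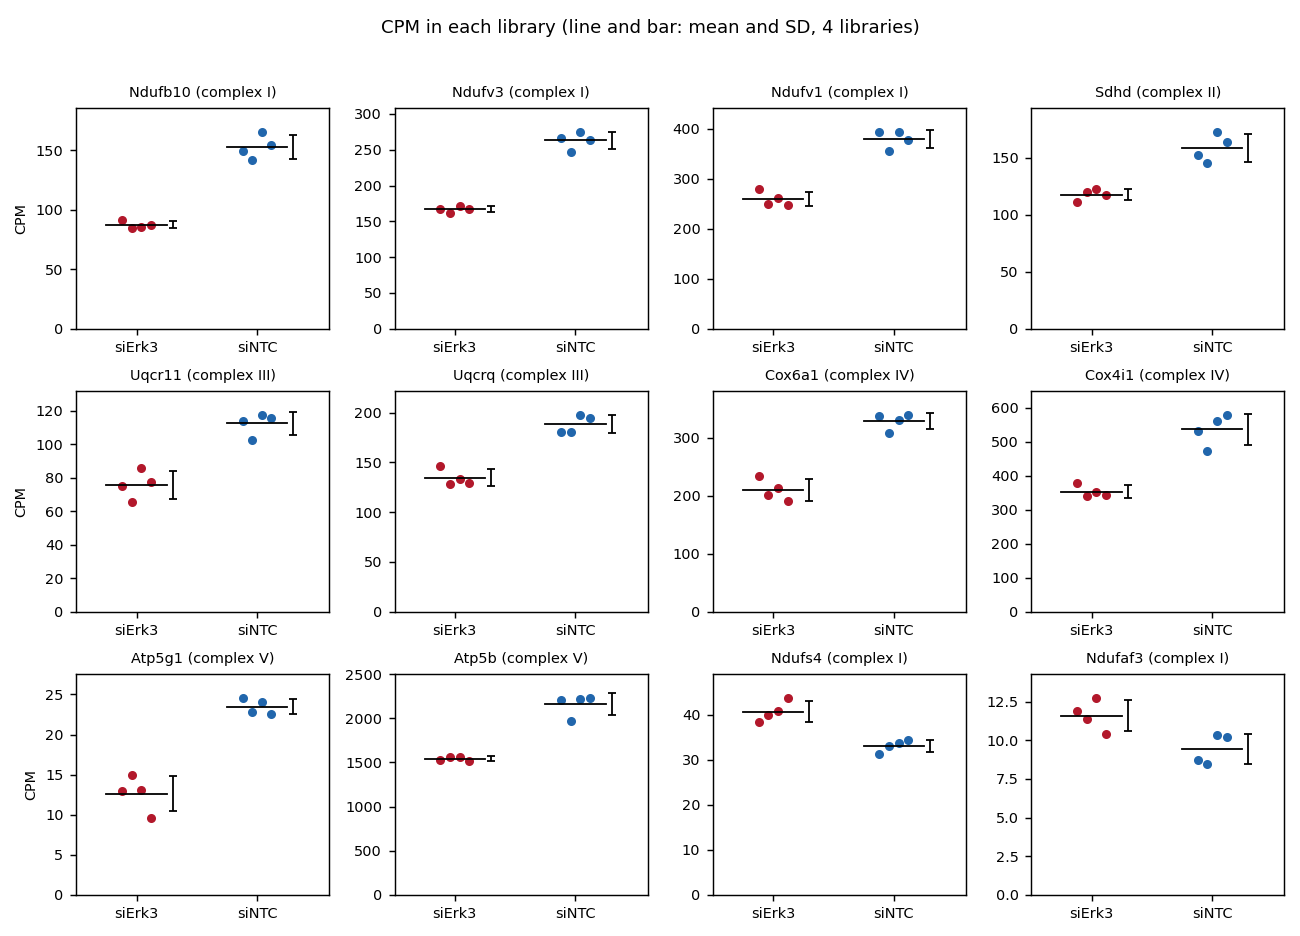
CPM of 12 genes in each library (points), with mean (line) and SD (bar), siErk3 left of siNTC in every panel. In the 10 genes called lower, from Atp5g1 at 9.59 CPM to Atp5b at 2233 CPM, the siErk3 points lie below all siNTC points, whereas those of Ndufs4 and Ndufaf3 lie above them.

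In complex II, succinate dehydrogenase, which also works in the citric acid cycle, all 4 genes were called lower, with a median log2 fold change of -0.27. Sdha, the flavin subunit that oxidizes succinate, had 435, 421, 412 and 415 CPM in siErk3, against 555, 537, 527 and 559 CPM in siNTC (log2 fold change -0.37 ± 0.027, adjusted p = 9.54e-07). Sdhd, a membrane anchor of the complex, had 111, 120, 122 and 117 CPM in siErk3, against 152, 146, 173 and 163 CPM in siNTC (log2 fold change -0.43 ± 0.062, adjusted p = 1.44e-06). Both genes separated the groups with room to spare.

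The log2 fold changes of the other genes were smaller. Sdhb, the iron-sulfur subunit, had 162, 160, 166 and 171 CPM in siErk3 and 183, 167, 191 and 201 CPM in siNTC (log2 fold change -0.17 ± 0.060, adjusted p = 0.0151). Sdhc, the other membrane anchor, had 148, 161, 154 and 154 CPM in siErk3 and 174, 163, 176 and 178 CPM in siNTC (log2 fold change -0.16 ± 0.038, adjusted p = 0.0106). The groups overlapped for Sdhb through siNTC replicate 2 and came close for Sdhc. With library sizes only, neither passed the test (adjusted p = 0.209 for Sdhb and 0.201 for Sdhc), and without siNTC replicate 4 Sdhb did not pass (adjusted p = 0.0752). Over the 16 alternatives the adjusted p ranged from 9.95e-04 to 0.209 for Sdhb and from 5.35e-04 to 0.201 for Sdhc.

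Complex III, which hands electrons from ubiquinol to cytochrome c, had 11 members, of which 9 were called lower and none higher (median log2 fold change -0.24). Of its 9 genes without pseudogenes, 8 were called lower. Cyc1, the cytochrome c1 subunit, had 198, 189, 211 and 197 CPM in siErk3, against 254, 253, 277 and 260 CPM in siNTC (log2 fold change -0.39 ± 0.045, adjusted p = 1.22e-06). Uqcrfs1, the Rieske iron-sulfur protein, had 204, 217, 212 and 212 CPM in siErk3, against 259, 253, 280 and 283 CPM in siNTC (log2 fold change -0.35 ± 0.044, adjusted p = 6.34e-06). Both redox carriers of the complex that the nucleus encodes were thus lower in every siErk3 library.

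The largest falls in complex III were in small subunits without a redox center. Uqcr11 had 75.4, 65.2, 85.7 and 77.4 CPM in siErk3 and 114, 102, 118 and 116 CPM in siNTC (log2 fold change -0.57 ± 0.091, adjusted p = 2.92e-07). Uqcrq, which sits next to cytochrome b, had 147, 129, 134 and 129 CPM in siErk3 and 181, 180, 198 and 194 CPM in siNTC (log2 fold change -0.48 ± 0.056, adjusted p = 1.40e-07). The scaffold subunit Uqcrc1 had 240 ± 11.3 CPM in siErk3 and 283 ± 15.4 CPM in siNTC (SD, n = 4 each; log2 fold change -0.24). Uqcrc2, Uqcrb and Uqcrh were called lower with log2 fold changes of -0.22, -0.23 and -0.15. Other annotated genes share 58.2% of the Uqcrb transcript, so its counts are uncertain. Uqcrb lost its call with library sizes only, and Uqcrh in 4 of 16 alternatives: with library sizes only, without siErk3 replicate 1, and without siNTC replicate 3 or 4. Uqcr10 was the 1 gene not called. It had 91.5, 99.1, 104 and 106 CPM in siErk3 and 95.7, 88.8, 96.3 and 109 CPM in siNTC (log2 fold change 0.04, 95% interval -0.15 to 0.23).

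Cycs, the somatic cytochrome c that carries electrons between complexes III and IV, had 109, 105, 95.8 and 103 CPM in siErk3, against 117, 112, 110 and 117 CPM in siNTC (log2 fold change -0.15 ± 0.046, adjusted p = 0.0291). The groups came close without overlapping. The call was lost in 5 of 16 alternatives, with adjusted p from 1.79e-03 to 0.389. These were library sizes only (0.389) and leaving out siErk3 replicate 3 or 4 or siNTC replicate 1 or 4 (0.134, 0.0618, 0.0812 and 0.0737). About 32.0% of its transcript is shared with other annotated genes.

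Complex IV, cytochrome c oxidase, had 13 members under the rule, Cox7a2l among them, with 9 called lower, 1 higher and a median log2 fold change of -0.26. Its nuclear subunits surround a catalytic core that mitochondrial DNA encodes, and several exist as isoforms of different tissues. Cox6a1, the form of subunit 6a found in most tissues, had 234, 200, 213 and 191 CPM in siErk3, against 337, 308, 331 and 339 CPM in siNTC (log2 fold change -0.65 ± 0.070, adjusted p = 3.34e-09). Cox4i1, the common form of subunit 4 and needed for assembly, had 379, 341, 352 and 342 CPM in siErk3, against 531, 474, 563 and 580 CPM in siNTC (log2 fold change -0.60 ± 0.073, adjusted p = 1.41e-08). In both genes the groups lay far apart.

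Cox8a, whose product is the smallest nuclear subunit, had 421, 453, 449 and 418 CPM in siErk3 and 562, 528, 596 and 517 CPM in siNTC (log2 fold change -0.34 ± 0.056, adjusted p = 1.77e-05). Per kilobase of transcript it had the highest level of the nuclear genes of complex IV. It stood at 792 CPM per kb in siErk3 and 1002 CPM per kb in siNTC, ahead of Cox4i1 with 475 and 721 CPM per kb in siErk3 and siNTC. Cox6c had 103, 94.5, 94.7 and 92.8 CPM in siErk3 and 126, 108, 131 and 133 CPM in siNTC (log2 fold change -0.37 ± 0.077, adjusted p = 3.68e-05). Cox5b, Cox6b1, Cox7b and Cox7c were also called lower, with log2 fold changes between -0.32 for Cox7c and -0.19 for Cox5b. The counts of Cox7c are uncertain, since it shares 55.7% of its transcript with other genes. With library sizes only Cox5b and Cox7b lost their calls, Cox5b also without siErk3 replicate 1. The other genes were not called: Cox5a (log2 fold change -0.08), Cox7a2 (-0.14) and Ndufa4, a subunit whose level differs between tissues. Ndufa4 had 131, 140, 120 and 128 CPM in siErk3 and 128, 117, 125 and 129 CPM in siNTC (log2 fold change 0.06, 95% interval -0.08 to 0.20), and with library sizes only it was called higher.

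Cox6a2, the form of subunit 6a known from heart and skeletal muscle, was the member with the largest rise and the lowest CPM among the 87 genes. It had 68, 57, 60 and 52 counts in siErk3 and 32, 38, 46 and 33 counts in siNTC, or 6.57, 5.63, 5.84 and 5.14 CPM in siErk3 and 3.33, 3.93, 4.80 and 3.47 CPM in siNTC. The groups did not overlap, and the log2 fold change was 0.58 ± 0.138 (adjusted p = 3.75e-03). The gene shares 70 exonic bases with Itgad on the opposite strand. Of the 9 muscle markers 1 was in the table, the skeletal actin Acta1. It was called higher too, with 10.7 ± 0.855 CPM in siErk3 and 5.11 ± 0.666 CPM in siNTC (SD, n = 4 each; log2 fold change 1.06 ± 0.108), and its part in the result was not tested.

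The 2 genes left out, also forms known from muscle and brown fat, were both called lower. Cox7a1 had 1.84, 1.97, 2.92 and 2.57 CPM in siErk3, against 8.85, 11.5, 8.14 and 9.78 CPM in siNTC (log2 fold change -2.03 ± 0.199, adjusted p = 6.15e-10). Cox8b had 7.54, 6.12, 7.98 and 7.81 CPM in siErk3, against 12.5, 10.2, 13 and 15.9 CPM in siNTC (log2 fold change -0.81 ± 0.163, adjusted p = 1.84e-05). Both were low beside the common Cox genes. Of the markers of brown and beige fat in the table, which include these genes, 3 of 4 were called lower; the defining genes Ucp1, Dio2 and Elovl3 were not analysed here.

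Complex V, the ATP synthase, had 20 members including 4 pseudogenes, with 13 called lower, none higher and with a median log2 fold change of -0.28. Of its 16 genes without pseudogenes 12 were called lower. Its catalytic head was led by Atp5b, the beta subunit that makes ATP, with 1524, 1566, 1565 and 1514 CPM in siErk3, against 2211, 1971, 2221 and 2233 CPM in siNTC (log2 fold change -0.49 ± 0.045, adjusted p = 4.74e-08). Atp5a1, the alpha subunit, had 734, 746, 745 and 733 CPM in siErk3, against 958, 908, 993 and 1015 CPM in siNTC (log2 fold change -0.39 ± 0.036, adjusted p = 8.90e-07). These genes had the highest CPM of the nuclear genes of the chain, and the siErk3 libraries lay close together in both.

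Per kilobase of transcript, Atp5b stood at 805 CPM per kb in siErk3 and 1127 CPM per kb in siNTC, and Atp5a1 at 299 CPM per kb in siErk3 and 392 CPM per kb in siNTC. The gamma and delta subunits of the rotating stalk, Atp5c1 and Atp5d, were called lower with log2 fold changes of -0.33 and -0.30, whereas the epsilon subunit Atp5e was not called (log2 fold change -0.14). The side stalk that holds the head in place gave 4 lower calls of 4: Atp5h, Atp5o, Atp5f1 and Atp5j. The groups of Atp5j overlapped (log2 fold change -0.15), and it lost its call in 6 of 16 alternatives: with library sizes only, without siErk3 replicate 1, 2 or 3, and without siNTC replicate 1 or 4. Atp5f1 (log2 fold change -0.21) lost its call with library sizes only. Atp5h had 51.2, 45.6, 50.7 and 46.6 CPM in siErk3 and 66.7, 57.1, 63.9 and 73.9 CPM in siNTC (log2 fold change -0.43 ± 0.089, adjusted p = 1.93e-05). Sequence shared with Gm10250 covers 60.8% of the Atp5h transcript, so its counts are uncertain, as are those of Atp5o and Atp5f1, which share 63.2% and 46.7% of their transcripts with other genes.

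Among the small membrane subunits, Atp5j2 (subunit f) had 73.3, 67.4, 74.4 and 68.3 CPM in siErk3 and 93.2, 96.7, 97.9 and 102 CPM in siNTC (log2 fold change -0.46 ± 0.044, adjusted p = 2.53e-07). Subunits e and g help to join ATP synthases into dimers. Atp5k (e) was not called (log2 fold change -0.03), and Atp5l (g) had 44.7, 50.7, 46.3 and 41.7 CPM in siErk3 and 43.2, 40.2, 46.5 and 41.9 CPM in siNTC (log2 fold change 0.10, 95% interval -0.09 to 0.28). The groups of Atp5l overlapped, it was called higher with library sizes only, and it shares 85.4% of its transcript with other genes. Atp5s, a factor of low level, was not called (log2 fold change -0.14).

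The c subunit, of which a ring turns in the membrane, is encoded by 3 genes, and these are shown because the protein they leave behind is the same while their transcripts can be told apart. In the GENCODE M21 transcripts the proteins have 136, 146 and 141 residues for Atp5g1, Atp5g2 and Atp5g3, and their last 78 residues are identical. The 234 bases that encode this shared end are given below, 5′ to 3′ on the coding strand, with capitals at the bases that differ from Atp5g3 (chromosome 11 for Atp5g1, 15 for Atp5g2 and 2 for Atp5g3).
Atp5g1: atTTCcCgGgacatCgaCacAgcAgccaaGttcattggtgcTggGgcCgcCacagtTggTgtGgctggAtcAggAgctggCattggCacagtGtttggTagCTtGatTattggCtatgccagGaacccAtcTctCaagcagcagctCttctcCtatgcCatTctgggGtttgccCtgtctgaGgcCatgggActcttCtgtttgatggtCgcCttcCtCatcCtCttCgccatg
Atp5g2: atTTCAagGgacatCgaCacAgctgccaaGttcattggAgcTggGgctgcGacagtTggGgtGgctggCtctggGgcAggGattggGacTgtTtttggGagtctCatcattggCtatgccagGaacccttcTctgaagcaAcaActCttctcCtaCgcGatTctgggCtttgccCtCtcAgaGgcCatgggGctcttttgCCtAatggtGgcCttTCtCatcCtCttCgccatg
Atp5g3: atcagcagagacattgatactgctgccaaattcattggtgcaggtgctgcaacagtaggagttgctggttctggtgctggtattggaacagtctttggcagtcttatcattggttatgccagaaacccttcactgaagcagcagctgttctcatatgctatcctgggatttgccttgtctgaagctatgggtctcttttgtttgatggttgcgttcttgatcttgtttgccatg
Atp5g1 differs from Atp5g3 at 50 bases and Atp5g2 at 53, and the longest identical run is 11 bases for Atp5g1 and 8 bases for Atp5g2. Between Atp5g1 and Atp5g2 36 bases differ and the longest identical run is 20 bases. Over this stretch, a read longer than 20 bases thus meets a difference between any pair of the 3 genes.

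All 3 c subunit genes were called lower. Atp5g1 showed the largest fall of all members, with 12.9, 14.9, 13 and 9.59 CPM in siErk3, against 24.6, 22.8, 24.0 and 22.5 CPM in siNTC (log2 fold change -0.89 ± 0.123, adjusted p = 1.01e-07). Atp5g3, by far the most abundant, had 309, 318, 308 and 293 CPM in siErk3, against 393, 362, 410 and 436 CPM in siNTC (log2 fold change -0.38 ± 0.061, adjusted p = 4.68e-06). Atp5g2 had 41.0, 48.4, 43.4 and 41.8 CPM in siErk3, against 51.7, 49.8, 57.4 and 50 CPM in siNTC (log2 fold change -0.26 ± 0.073, adjusted p = 2.32e-03). No gene of the 3 overlapped between groups, though Atp5g2 came close. Annotated copies share 57.6% of the Atp5g1 transcript (mostly Gm10039) and 100% of the short Atp5g2 transcript (Gm10175), and none of that of Atp5g3, so the counts of the first 2 are uncertain.

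Of the summed level per kilobase of the 3 genes, Atp5g1 made up 3.33% ± 0.459 in siErk3 and 4.78% ± 0.360 in siNTC, Atp5g2 18.1% ± 0.810 in siErk3 and 16.6% ± 1.17 in siNTC, and Atp5g3 78.6% ± 0.984 in siErk3 and 78.6% ± 1.45 in siNTC (SD, n = 4 each). Isoform balance was compared within libraries for the 4 pairs in the table, by a two-sided exact permutation test of the log2 ratio of counts, without adjustment; the smallest p that 4 against 4 libraries allow is 0.0286. Atp5g1 reached 4.10% ± 0.597 of the Atp5g3 counts in siErk3 and 5.89% ± 0.528 in siNTC (SD, n = 4 each, exact p = 0.0286), lower in every siErk3 library. The ratio of Atp5g2 to Atp5g3 was 14.2% ± 0.802 in siErk3 and 13.1% ± 1.14 in siNTC and overlapped (SD, n = 4 each, exact p = 0.143).

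Cox6a2 reached 2.76% ± 0.0589 of the Cox6a1 counts in siErk3 and 1.18% ± 0.218 in siNTC (SD, n = 4 each, exact p = 0.0286), higher in every siErk3 library. Every siErk3 library lay above every siNTC library for Cox6a2 and below for Cox6a1, so this ratio had to separate. Its exact p thus adds nothing to the single-gene calls. Cox7a2l, which resembles the subunit Cox7a2 and joins complexes III and IV into supercomplexes, had 104, 116, 109 and 113 CPM in siErk3, against 131, 131, 150 and 154 CPM in siNTC (log2 fold change -0.36 ± 0.070, adjusted p = 3.17e-05). Cox7a2 itself was not called, with 68.6, 82.3, 75.4 and 84.1 CPM in siErk3 and 83.8, 76.4, 90.4 and 91.2 CPM in siNTC. It did not pass in 13 of 16 alternatives and was called lower in the rest. Over the 16 its log2 fold change ran from -0.21 to -0.05 and its adjusted p from 0.0124 to 0.518. The ratio of Cox7a2l to Cox7a2 was 143% ± 7.15 in siErk3 and 166% ± 6.55 in siNTC (SD, n = 4 each, exact p = 0.0286), lower in every siErk3 library.

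**Figure D4:**
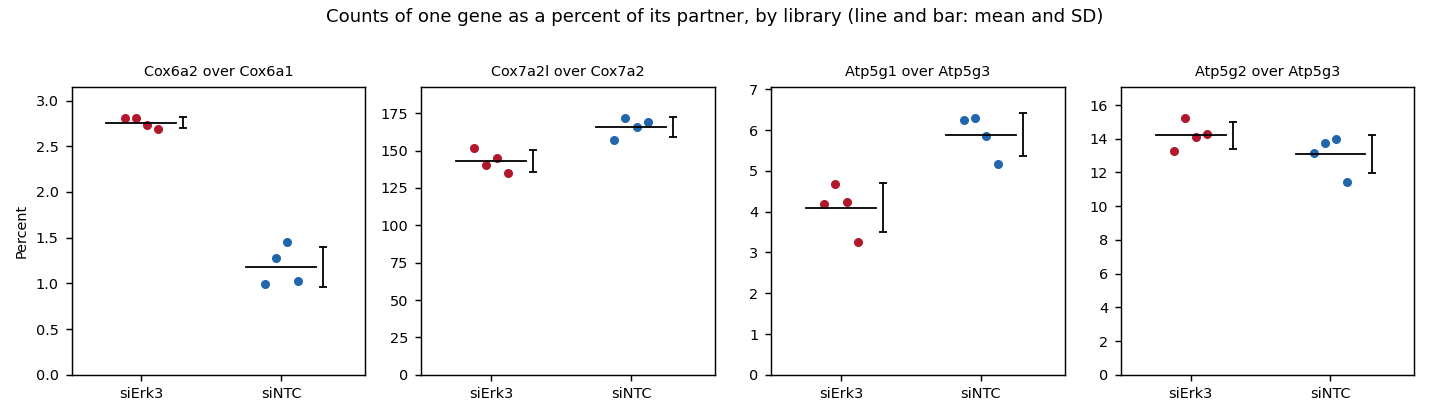
Counts of one gene as a percent of its partner in each library (points), with mean (line) and SD (bar), siErk3 left of siNTC. The siErk3 points lie above all siNTC points for Cox6a2 over Cox6a1 (2.76% and 1.18%), below them for Cox7a2l over Cox7a2 and Atp5g1 over Atp5g3, and overlap for Atp5g2 over Atp5g3.

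Within the chain the fall went with the level. All 20 of the members with the highest CPM, at 185 CPM or more, were called lower, with a median log2 fold change of -0.39. Of the 20 with the lowest CPM, at 4.84 to 36.4 CPM, 6 were called lower and 2 higher, with a median of -0.07. Genes of the whole table at 185 CPM or more were called lower in 49.9% of cases (390 of 781, median log2 fold change -0.13), and genes in the range of the lowest 20 in 22.1%. Spearman's rho between log2 fold change and mean CPM was -0.45 across the 87 genes and 0.04 across all genes tested; the points share libraries, and low genes are called less often at the same fold. With transcript length rho was -0.08 across the 87 genes. The assembly factors sat at the low end of the level.

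**Figure D5:**
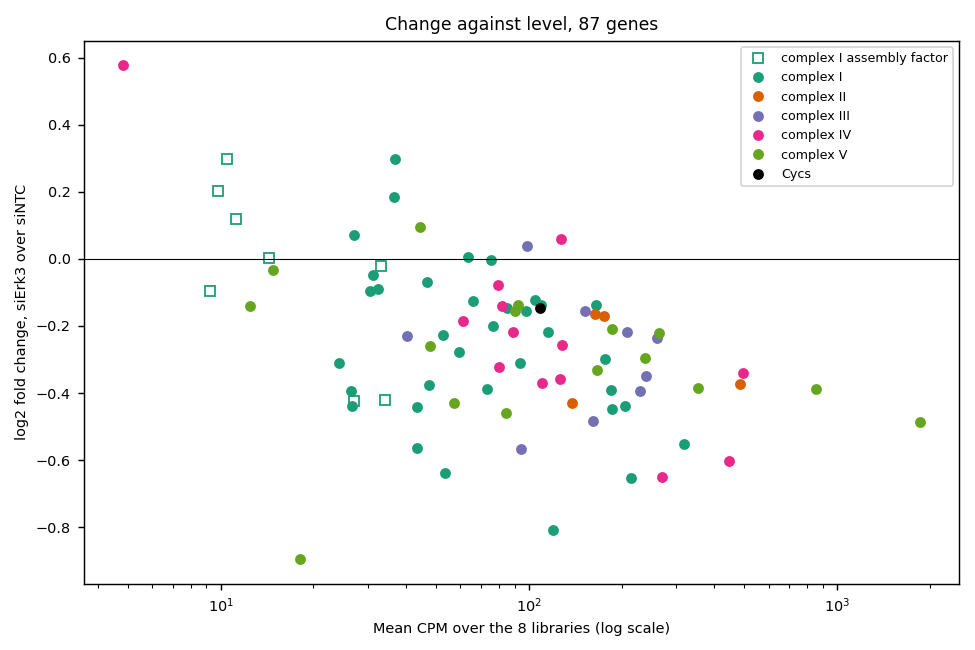
Log2 fold change (siErk3 over siNTC) against mean CPM over the 8 libraries (log scale) for 86 of the 87 genes, colored by complex, with complex I assembly factors as open squares. All points at 185 CPM or more lie below 0, and the 3 called higher lie toward the low end of the axis.

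The 7 pseudogenes, short processed copies that reads of the parent gene can reach, gave 3 lower calls and a median log2 fold change of -0.27. Without them 60 of 87 genes (69%) were called lower, and 31 of the 45 members that neither overlap another gene's exons nor share 20% or more of their sequence (68.9%). Genes named above that share 20% or more include Cox6a1 (23.8%) and Cox7a2l (23.3%). Of the 87 genes, 31 share exon bases with a neighbour, 21 of them called lower, and reads of the genes can mix there. Among genes named above as lower, the overlap is 504 bases for Uqcrc2 (Pdzd9), 489 for Ndufs1 (Ino80dos), 397 for Atp5j (Gabpa), 356 and 346 for Atp5o (Gm15976 and D430001F17Rik), 337 and 203 for Atp5f1 (Wdr77 and Gm42890), 250 for Cox6c (Vps13b), 154 for Cox4i1 (Emc8), 129 for Atp5a1 (Haus1) and 117 for Ndufb11 (Rbm10), and at most 75 for the others named.

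The partners of the chain outside the rule were called in both directions. Of 47 further assembly genes, 19 were called lower and 10 higher (median log2 fold change -0.11). For this list and those below, the shares over all genes tested were 23.8% lower and 24.9% higher. In complex IV assembly 8 of 23 were called lower and 5 higher, the higher ones including Cox15, an enzyme of heme a synthesis (112 ± 5.70 CPM in siErk3 and 84.9 ± 4.47 CPM in siNTC, SD, n = 4 each). The summed level of that list was 859 to 891 CPM in siErk3 and 845 to 908 CPM in siNTC. In complex V assembly 2 of 3 were called lower, among them Atpaf2, which helps to form the catalytic head, with 72.0 ± 1.73 CPM in siErk3 and 109 ± 2.27 CPM in siNTC (SD, n = 4 each; log2 fold change -0.59). Of 9 genes that feed electrons into ubiquinone by other routes, 4 were called lower and 2 higher. Etfb, a carrier of electrons from fatty acid oxidation, had 154 ± 10.4 CPM in siErk3 and 301 ± 16.8 CPM in siNTC (SD, n = 4 each; log2 fold change -0.97).

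Of the 13 subunits that mitochondrial DNA encodes, 12 were called lower and none higher (median log2 fold change -0.71). Their summed level was 37522 to 47357 CPM in siErk3 and 52635 to 59291 CPM in siNTC. mt-Cytb, the cytochrome b of complex III, had 2666, 3077, 2747 and 3211 CPM in siErk3, against 7638, 6664, 6691 and 7193 CPM in siNTC (log2 fold change -1.27 ± 0.080). mt-Co1, the catalytic subunit of complex IV and the 1 with the highest CPM of the 13, was not called, with 18906, 22301, 20688 and 23228 CPM in siErk3 and 20766, 18938, 22577 and 21337 CPM in siNTC (log2 fold change 0.03). The other mitochondrial subunits of complex IV were called lower with no overlap between the groups. mt-Co2 had 2393, 2709, 2444 and 2876 CPM in siErk3 and 4108, 3667, 3891 and 4170 CPM in siNTC (log2 fold change -0.60), and mt-Co3 had 1749, 2174, 1920 and 2223 CPM in siErk3 and 2687, 2378, 2759 and 2931 CPM in siNTC (log2 fold change -0.41).

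Among 12 genes known to regulate the chain, 4 were called lower (33.3%, beside 23.8% of all genes) and 1 higher. Ppargc1b, a coactivator of mitochondrial genes, had 25.9 ± 2.48 CPM in siErk3 and 45.7 ± 2.68 CPM in siNTC (SD, n = 4 each; log2 fold change -0.82). Esrra, a nuclear receptor that works with such coactivators, had 111 ± 9.89 CPM in siErk3 and 148 ± 5.75 CPM in siNTC (log2 fold change -0.41, SD, n = 4 each). Nrf1, a transcription factor with sites in many respiratory chain promoters, had 43.3 ± 3.10 CPM in siErk3 and 50.5 ± 2.66 CPM in siNTC (SD, n = 4 each; log2 fold change -0.22, called lower). Yy1, a zinc finger factor, had 147 ± 9.92 CPM in siErk3 and 134 ± 6.02 CPM in siNTC and was not called. The 1 called higher was Pprc1, a coactivator related to Ppargc1b, with 43.2 ± 3.33 CPM in siErk3 and 37.7 ± 2.77 CPM in siNTC (SD, n = 4 each; log2 fold change 0.20), and its groups overlapped.

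Promoters are shown for the member with the largest fall that held a searched motif in complexes V, I and IV. In complex I the fall of Ndufb10 was larger than that of Ndufv3, but the Ndufb10 promoter held none of the searched motifs. RefSeq promoters (GRCm38.p6, 250 bases before to 50 after the start) matched 73 of the 87 genes. The sequences run 5′ to 3′ along the gene, and capitals mark matches on either strand to CCAAT and, in Cox6a1 only, also to the NRF1 core GCGCATGCG. They lie at chr11:96075582-96075881 (minus strand) for Atp5g1, chr17:31519865-31520164 (plus strand) for Ndufv3 and chr5:115348909-115349208 (minus strand) for Cox6a1.
Atp5g1: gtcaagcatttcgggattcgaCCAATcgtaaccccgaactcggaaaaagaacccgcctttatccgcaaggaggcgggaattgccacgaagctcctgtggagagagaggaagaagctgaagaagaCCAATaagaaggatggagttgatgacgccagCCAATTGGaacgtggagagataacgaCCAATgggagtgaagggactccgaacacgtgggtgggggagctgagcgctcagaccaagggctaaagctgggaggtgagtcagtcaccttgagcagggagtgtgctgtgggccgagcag
Ndufv3: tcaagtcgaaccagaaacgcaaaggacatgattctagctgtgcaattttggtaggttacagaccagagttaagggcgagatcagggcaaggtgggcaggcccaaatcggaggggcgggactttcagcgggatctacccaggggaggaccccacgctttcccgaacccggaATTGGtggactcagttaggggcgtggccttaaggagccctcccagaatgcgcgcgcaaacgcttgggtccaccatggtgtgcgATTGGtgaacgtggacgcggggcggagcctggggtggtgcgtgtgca
Cox6a1: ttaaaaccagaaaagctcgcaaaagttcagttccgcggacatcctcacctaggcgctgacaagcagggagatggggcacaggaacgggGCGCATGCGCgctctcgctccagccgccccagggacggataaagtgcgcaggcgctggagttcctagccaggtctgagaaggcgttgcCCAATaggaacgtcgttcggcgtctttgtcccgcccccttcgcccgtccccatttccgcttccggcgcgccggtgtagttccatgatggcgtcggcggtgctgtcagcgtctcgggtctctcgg
The Atp5g1 promoter held 5 CCAAT matches and that of Ndufv3 2, while that of Cox6a1 held 1 CCAAT match and 2 overlapping NRF1 matches, one on each strand of a palindrome.

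The 6 motifs were counted on both strands in all promoters of each gene. The NRF1 core was found in 11 of the 73 genes (15.1%), against 1.95% of the 27025 genes in the promoter table. The YY1 core AAGATGGCG was found in 8 (11%), against 1.64%. The ETS core CCGGAAGT was found in 5 genes (6.85%), against 4.31%, and the ERR motif AAGGTCA in 8 (11%), against 5.38%. The forkhead motif GTAAACA, of the family to which FOXO1 belongs, was found in 2 genes (2.74%), against 4.05%, and CCAAT in 43.8%, against 41.1%. Split by call, the 49 genes called lower and the 24 others held the NRF1 core in 12.2% and 20.8%, the YY1 core in 10.2% and 12.5%, the ETS core in 8.16% and 4.17%, the ERR motif in 6.12% and 20.8%, the forkhead motif in 2.04% and 4.17%, and CCAAT in 42.9% and 45.8%. The 27025 genes were not limited to genes tested here and were not matched to the members in level or base composition. Matches describe letters in this window and were not tested.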

How the data were processed

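The authors deposited raw counts per gene for 8 poly(A) libraries (4 siErk3, 4 siNTC), already without genes of low counts. Their processing notes name bcl2fastq, FastQC, Bowtie2, edgeR and the build mm10; the counting program and annotation are not given in the sources used here. A second table holds the authors' own comparison (log2 fold change, average log2 CPM, p and adjusted p) and was not used. The 8 libraries were grouped by their titles, and siErk3 was compared with siNTC.

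The test used edgeR 4.0.16 (R 4.3.3) on these counts, with filterByExpr at its defaults (minimum count 10, minimum total 15), TMM factors, the quasi-likelihood test without covariates, and calls at an adjusted p under 0.05 over all 17972 genes. The SE comes from each gene's own spread on 6 residual degrees of freedom. The intervals of the log2 fold changes were built from this SE, so they cover the spread among these libraries alone. PCR copies of a molecule could not be told from other reads. Replicates of a group differed by more than sampling noise (chi-square per gene 1.97 to 8.3).

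Alternatives were DESeq2 1.42.0, RLE or upper-quartile factors, library sizes only, no filter, 5 CPM in at least 4 libraries, limma-voom (limma 3.58.1), the replicate number as a block, and leaving out each library. Shares without pseudogenes or without shared sequence were added after seeing the data. Positions, exon overlaps, transcript lengths (principal transcript) and shared 31-base words came from GENCODE M21, of the same build, and promoters from RefSeq (GRCm38.p6, matched by symbol) with Python 3.11.15. The fits were tested on simulated counts.

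The members and lists were chosen with earlier results of these data known. The rule for named genes took every Sdh gene, Cyc1, Cycs, all members called higher, the 4 lowest log2 fold changes and 3 most abundant genes of complexes I, III, IV and V, isoform pairs, the extreme Ndufaf genes, Cox7a1, Cox8b and Mapk6. Of these, 1 gene the rule names is counted but not reported here. Other members and list genes named were chosen after their values were seen.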

Additional observations from a re-analysis of the deposited data

Results flagged for a closer look

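Among the 72 groups of 4 values of the 36 genes named by rule, 1 held a library far from the other 3 by Dixon's test, where chance gives about 3.6. Atp5b had 1514 to 1566 CPM in the 4 siErk3 libraries, against 1971 CPM in siNTC replicate 2 and 2211 to 2233 CPM in the other siNTC libraries. The same library held the lowest siNTC value for 62 of the 87 genes.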

How the results depend on the processing

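Of the 35 named genes that were called, 31 kept their call in all 16 alternatives; Cycs, Ndufaf3, Sdhb and Sdhc did not, and no named gene changed sign. Of all 60 genes called lower, 46 kept their call in all 16, and Atp5j, Ndufa7 and Ndufa10 lost it most often, in 6 each. The count of members called lower stayed between 49 (library sizes only) and 69 (upper-quartile factors), and between 55 and 68 when 1 library was left out. Library sizes only gave 7 members called higher and 2 complex II genes called lower; the cause was not tested. Deviations of same-numbered libraries had correlations of 0.0346, 0.0443, 0.186 and -0.00648, and 2 of 4 numbers were best with their own. These few values cannot settle whether the replicate numbers pair the samples. With the number as a replicate block, 66 members were called lower and 3 higher (complex I 28, II 4, III 9, IV 9, V 15), among 4292 genes called lower and 4501 higher. Members at a few CPM, such as Cox6a2 with 32 to 68 counts, are limited by depth. Poly(A) libraries measure transcripts, and neither protein nor respiration was analysed here.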
